A study of Homo sapiens with 12 samples.

Results

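The nuclear genes for subunits of the mitochondrial respiratory chain were compared in U251-APP cells that lack one of 2 binding sites of the insulator protein CTCF. The 78 genes were taken from the 11178 of the deposited table by the start of their symbol (NDUFA, NDUFB, NDUFC, NDUFS, NDUFV, UQCR, UQCC, COX4 to COX8, ATP5F, ATP5M, ATP5P), with CYC1 and SDHA, SDHB, SDHC and SDHD as exact symbols. They divide into 33 genes of complex I, 4 of complex II, 13 of complex III, 11 of complex IV and 17 of complex V. Of 95 symbols that match, 8 NDUFAF and 4 SDHAF assembly factors, 2 SDHA pseudogenes, and NDUFS3, NDUFB10 and COX4I1 were left out. NDUFA4, named for complex I, is counted here with complex IV, of which it is a subunit. The rule reads symbols and no measured value, and all 78 genes passed the filter on low values. The set was still chosen with earlier results of these data known.

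U251 is a human glioblastoma line of astrocytic origin, and U251-APP stably carries the K670N/M671L mutant of the amyloid precursor protein. The CTCF-A KO and CTCF-B KO cells were made with Cas9 and a pair of guide RNAs around the site named CTCF-A or CTCF-B and then picked as single-cell clones, per the labels' protocols. The WT cells keep both sites, although the labels give the same CRISPR/Cas9 treatment for all 3 groups. Every group has 4 libraries of total RNA, 12 in all. The labels do not say whether replicates are separate clones or cultures, so a p-value measures only the spread between these libraries, which may be technical, and a group may stand for 1 clone. Titles of the CTCF-B KO libraries start with the name of a gene, MTCH2, and a code that the labels do not explain.

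Complex I takes electrons from NADH, and complex II takes them from succinate in the citric acid cycle. Complex III passes them on to cytochrome c, complex IV hands them to oxygen, and complex V, the ATP synthase, uses the proton gradient that complexes I, III and IV build. Most subunits are made from nuclear genes and meet a few made from mitochondrial DNA, which are not analysed here. Many of the nuclear genes are known targets of the factors NRF1, GABP and YY1. Astrocytes and glioma cells use respiration beside a high rate of glycolysis.

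Values are the authors' normalized expression on a log2 scale, so a difference of 1 is a 2-fold change, and sequencing depth is unknown. Of 9 astrocyte and glioma markers, 8 were among the genes analysed, and of the listed markers of microglia, endothelium, epithelium and oligodendrocytes none was. GFAP, the intermediate filament of astrocytes, averaged 12.57 in CTCF-A KO, 12.83 in CTCF-B KO and 15.68 in WT. FABP7 and SLC1A3 averaged 9.39 and 9.90 in CTCF-A KO, with means of 10.06 and 9.11 in CTCF-B KO and 10.86 and 10.42 in WT. VIM, NES, SOX2, SOX9 and CD44 averaged 12.37 to 15.94 in CTCF-A KO, 11.90 to 15.52 in CTCF-B KO and 12.31 to 15.92 in WT. Of 5 neuron markers 2 were present: SYT1 averaged 7.82 in CTCF-A KO, 8.52 in CTCF-B KO and 7.81 in WT, and SNAP25 averaged 5.35 in CTCF-A KO, 5.96 in CTCF-B KO and 5.53 in WT. The part of these markers in the results was not tested. Pairs of replicates differed by a median absolute value, over all genes, of 0.080 to 0.290 in CTCF-A KO, 0.055 to 0.081 in CTCF-B KO and 0.052 to 0.082 in WT. CTCF-A KO replicate 4 stood apart from replicates 1 to 3. In those 3, the 25% of all genes richest in GC lay 0.438 to 0.885 above the 25% poorest in it (medians of the log2 difference from the WT mean), and the 25% with the shortest transcripts 0.356 to 0.563 above those with the longest. Both were smaller in replicate 4, at 0.087 and -0.012. The GC difference ran from -0.086 to 0.030 in CTCF-B KO and from -0.113 to 0.072 in WT. The part of this shift in the results below was not tested beyond a fit with the GC and length trend removed, so values without replicate 4 and with the trend removed are given where they change a result.

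Respiratory chain genes were mostly higher in CTCF-A KO than in WT. By limma's moderated test with Benjamini-Hochberg adjustment over 11128 genes (adjusted p under 0.05), 43 of the 78 were higher and 6 lower, and 29 did not pass. Over all genes 62.9% passed, 31.8% as higher and 31.1% as lower. The model takes 1 spread per gene from all 3 groups. Where CTCF-A KO libraries spread more than the others, SEs and p-values of its comparisons can be too small. For NDUFB7 the SD was 0.26 in CTCF-A KO, 0.11 in CTCF-B KO and 0.04 in WT. The median difference of the 78 genes was 0.21, beside 0.005 over all genes, and the range ran from -0.51 for NDUFS1 to 0.74 for ATP5MC1, so that none changed by 2-fold. All 4 CTCF-A KO libraries lay above all 4 WT libraries for 24 genes and below them for 5, where over all genes the shares were 25.7% and 22.1%. Leaving out WT replicate 3 or WT replicate 4 left 2 or 3 genes lower. Removing the GC and length trend gave 42 higher and 8 lower (32.1% and 29.7% over all genes) and a median of 0.14. Since whole cultures were sequenced, a change of RNA per cell and a change in the share of cells of a kind cannot be told apart.

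**Figure D1:**
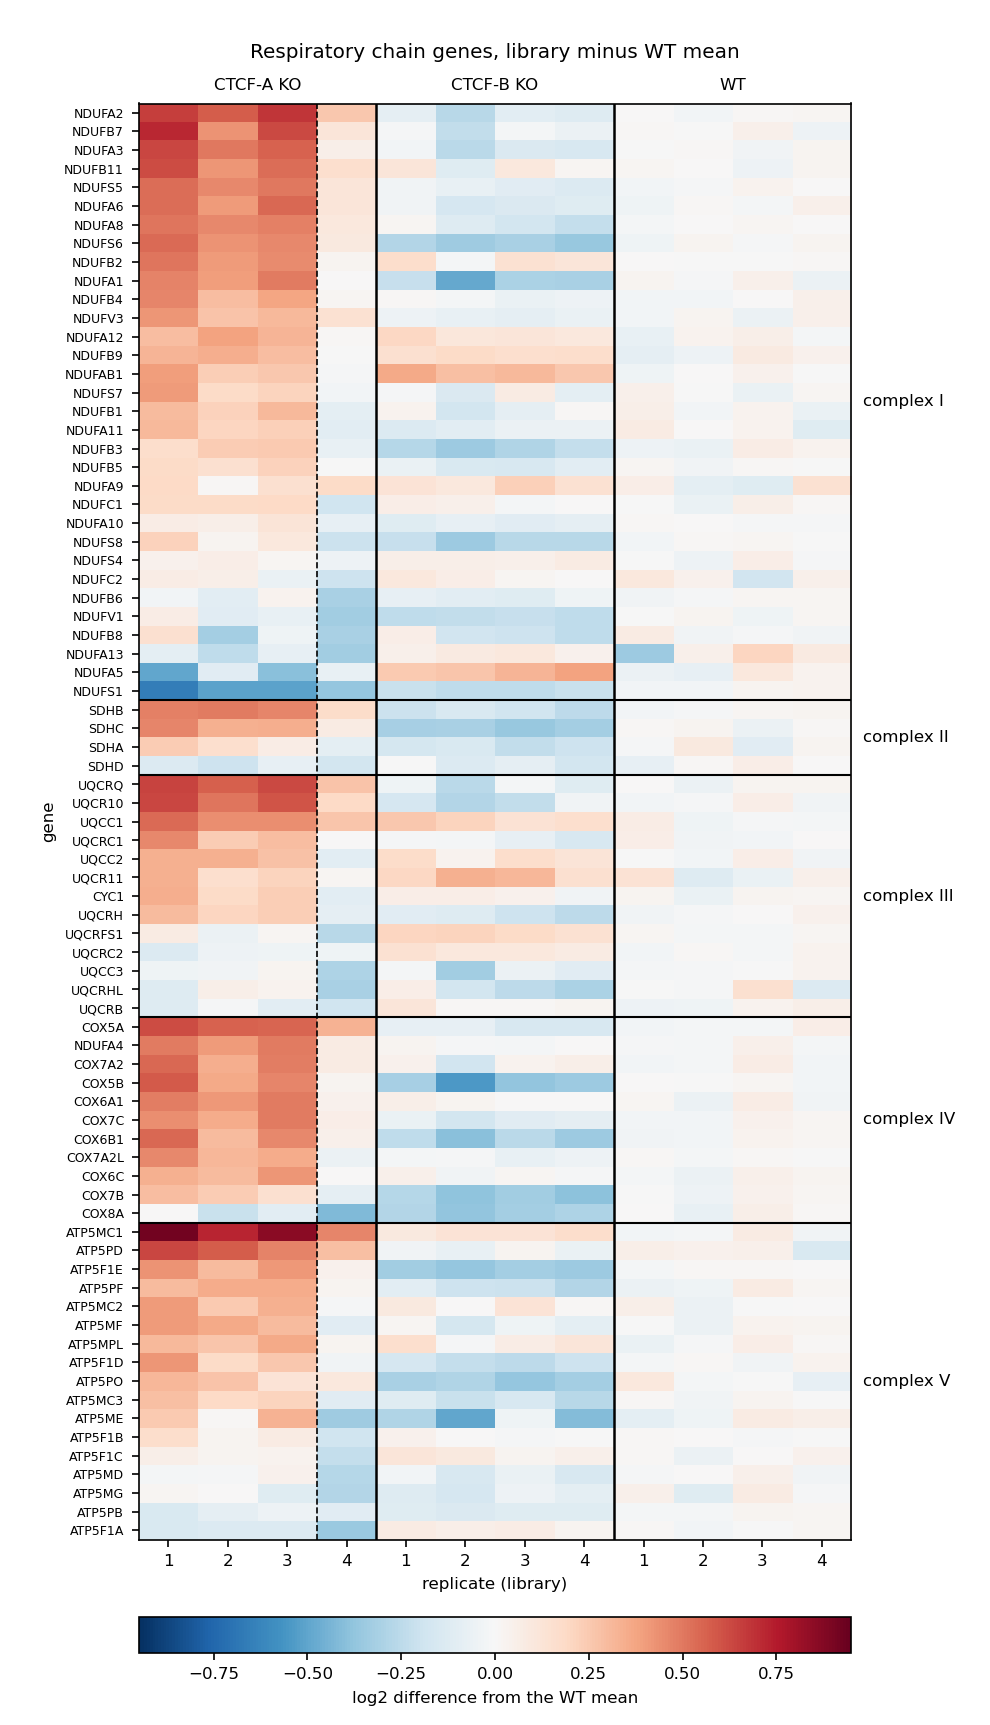
Each row is 1 of 77 respiratory chain genes drawn, sorted within complexes I to V by the CTCF-A KO difference, and each column is 1 library; colour gives the log2 difference from the mean of the 4 WT libraries. CTCF-A KO replicates 1 to 3 are mostly red, while replicate 4, to the right of the dashed line, has 36 of all 78 genes above the WT mean.

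The rise was carried by replicates 1 to 3. The median of the 78 genes against the WT mean was 0.33, 0.24 and 0.29 in those libraries and -0.01 in replicate 4. Replicate 4 was below each of the other 3 for 71 of 78 genes, as it was for 48.9% of all genes. Fitted without replicate 4, CTCF-A KO had 56 genes higher and 5 lower (37.9% and 35.9% over all genes) with a median of 0.29. With replicate 4 standing alone for CTCF-A KO, 8 were higher and 15 lower (20.2% and 21.6% over all genes) with a median of -0.01, and 14 and 14 (22.9% and 23.4%) once the trend was also removed; this last fit takes the lone library to vary as the other groups do.

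**Figure D2:**
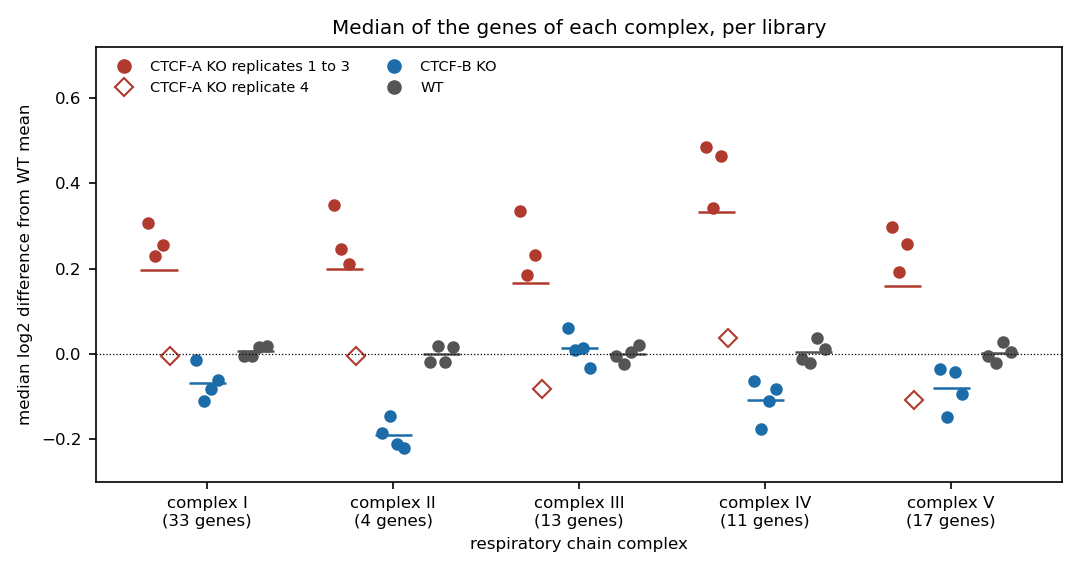
Points are libraries, and the vertical axis is the median log2 difference from the WT mean over the genes of each complex; short lines are group means and the open diamond is CTCF-A KO replicate 4. Complex IV has the highest medians in CTCF-A KO replicates 1 to 3, at 0.343 to 0.484, with replicate 4 at 0.038, and complex II lies at -0.221 to -0.146 in CTCF-B KO.

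In CTCF-B KO the genes were more often lower than higher, by small amounts. Against WT 6 were higher and 17 lower, where 39.4% of all genes passed, 18.9% as higher and 20.6% as lower. Their median was -0.08, beside 0.002 over all genes, and the range was -0.40 to 0.31. In 10 genes all CTCF-B KO libraries lay above all WT libraries and in 29 below (26.2% and 27.3% over all genes). The count depends on the spread taken from CTCF-A KO: 10 were higher and 33 lower without CTCF-A KO replicate 4 (25.5% and 26.8% over all genes), and 12 were higher and 34 lower in a fit of CTCF-B KO and WT alone (29.2% and 30.1%). Removing the GC and length trend gave 8 higher and 27 lower (29.3% and 25.5%). Leaving out CTCF-B KO replicate 1, 2 or 3, or WT replicate 2 or 3, left 3 genes higher.

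Set directly against CTCF-B KO, CTCF-A KO had 48 genes higher and 6 lower with a median of 0.27; all 4 libraries lay above all 4 of CTCF-B KO for 37 genes and below for 7 (28.3% and 25.3% over all genes). Over all genes 66.0% passed, 33.4% as higher and 32.6% as lower. Both comparisons with WT use the same WT libraries, so their counts are given side by side only. Of the 43 genes higher in CTCF-A KO, 10 were lower and 2 higher in CTCF-B KO, where 20.6% and 18.9% of all genes were. The same overlap was not counted over all genes. NDUFA5 was the only one of the 6 lower in CTCF-A KO that was higher in CTCF-B KO, and 3 of them were lower in both. Without replicate 4 the counts were 58 and 6 (38.3% and 37.4% over all genes), and with the trend removed 43 and 8 (32.7% and 35.8%). With replicate 4 standing alone for CTCF-A KO, 26 genes were higher and 15 lower than in CTCF-B KO (27.6% and 26.9% over all genes), with a median of 0.02. Removing the trend as well gave 32 and 17 (27.7% and 30.7%).

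Promoters of 60 of the 78 genes were found in a RefSeq table of GRCh38.p14 that gives 300 bases each, from 250 before to 50 after the gene's start. They were searched on both strands for 3 motif cores, GCGCATG for NRF1, CCGGAAG for GABP and other ETS factors, and AAGATGG for YY1; the ETS and YY1 cores can share the letters AAG. Of the 60, 15 held the NRF1 core, which 4.67% of all 27305 promoters in the reference held. The ETS core was in 28.3%, against 10.7% of all, and the YY1 core in 26.7%, against 6.06%. At least 1 core was in 58.3%, against 19.3%. Of the 33 promoters of genes higher in CTCF-A KO, 33.3% held the NRF1 core, 27.3% the ETS core and 30.3% the YY1 core. Of the 15 of genes lower in CTCF-B KO, the shares were 26.7%, 46.7% and 26.7%. A match is a description of letters, not a binding site. The 27305 promoters were not limited to the genes analysed here or matched for GC content, so the shares are set side by side only. The promoters below belong to SDHB, which holds all 3 cores, to COX5B, which had the largest difference between the knockouts, and to the genes with the largest rise (ATP5MC1, none of the cores) and fall (NDUFS1) in CTCF-A KO. Capitals mark the cores on either strand, and each sequence is on its gene's strand, 5′ to 3′.
SDHB, chr1:17053983-17054282, minus strand: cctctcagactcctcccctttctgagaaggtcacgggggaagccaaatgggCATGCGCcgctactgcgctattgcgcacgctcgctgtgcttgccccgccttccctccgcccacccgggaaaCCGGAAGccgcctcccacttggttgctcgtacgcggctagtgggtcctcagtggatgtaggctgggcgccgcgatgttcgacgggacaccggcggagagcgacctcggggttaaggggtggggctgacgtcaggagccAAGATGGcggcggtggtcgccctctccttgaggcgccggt
COX5B, chr2:97645812-97646111, plus strand: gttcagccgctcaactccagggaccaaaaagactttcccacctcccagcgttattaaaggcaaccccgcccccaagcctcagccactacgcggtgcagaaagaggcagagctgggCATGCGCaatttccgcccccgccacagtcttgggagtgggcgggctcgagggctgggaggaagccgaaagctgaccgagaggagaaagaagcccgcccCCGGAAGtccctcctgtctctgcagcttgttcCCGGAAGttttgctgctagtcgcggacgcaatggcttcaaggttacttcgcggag
ATP5MC1, chr17:48892537-48892836, plus strand: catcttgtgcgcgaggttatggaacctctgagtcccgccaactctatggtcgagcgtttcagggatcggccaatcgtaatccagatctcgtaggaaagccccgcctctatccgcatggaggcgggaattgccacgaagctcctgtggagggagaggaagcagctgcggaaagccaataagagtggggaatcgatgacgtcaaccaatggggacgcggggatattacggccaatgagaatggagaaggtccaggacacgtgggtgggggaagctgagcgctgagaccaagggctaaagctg
NDUFS1, chr2:206159395-206159694, minus strand: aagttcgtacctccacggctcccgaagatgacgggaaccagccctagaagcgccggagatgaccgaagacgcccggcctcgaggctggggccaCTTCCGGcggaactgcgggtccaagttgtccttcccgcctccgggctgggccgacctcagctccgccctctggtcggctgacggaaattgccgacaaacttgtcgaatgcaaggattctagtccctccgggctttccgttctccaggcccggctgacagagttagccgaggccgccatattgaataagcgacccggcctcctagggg

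In complex I, 18 of 33 genes were higher and 2 lower in CTCF-A KO than in WT, with a median of 0.19. Over all genes 31.8% were called higher and 31.1% lower, shares that also apply to the arms below. With the GC and length trend removed, complex I had 19 higher and 5 lower (32.1% and 29.7% over all genes), with a median of 0.15. Of the matrix arm, which binds NADH and carries the electron path, 13 of 15 listed genes were in the table, 7 higher and 2 lower. Of the 20 of the membrane arm, which pumps protons, 11 were higher and none lower by limma's adjusted p, and 13 were higher and 0 lower at an unadjusted p under 0.05. NDUFA2, an accessory subunit of the matrix arm, rose the most. Its values were 10.44, 10.36, 10.46 and 10.04 in CTCF-A KO replicates 1 to 4, 9.70, 9.52, 9.69 and 9.66 in CTCF-B KO, and 9.79, 9.76, 9.80 and 9.80 in WT. All CTCF-A KO libraries were above all others, by 0.54 ± 0.08 against WT (SE, n = 4 each, limma adjusted p = 9.48e-05).

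Further accessory subunits of the membrane arm rose in CTCF-A KO. NDUFB7 rose by 0.47 ± 0.10, NDUFA3 by 0.44 ± 0.10 and NDUFB11 by 0.43 ± 0.08 (SE, n = 4, limma adjusted p = 0.00167, 0.00229 and 0.000751). In replicate 4 they stood only 0.12, 0.06 and 0.16 above the WT mean, against 0.59, 0.57 and 0.52 for the mean of replicates 1 to 3. Even so all 4 libraries were above all WT libraries for each. In CTCF-B KO NDUFB7, NDUFA3 and NDUFB11 differed by -0.08, -0.14 and 0.03 without passing, although NDUFA3 passed there without CTCF-A KO replicate 4 (-0.14) and with the trend removed (-0.16). With the GC and length trend removed their rise in CTCF-A KO was 0.24, 0.23 and 0.22 and still passed.

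NDUFS1, the largest iron-sulfur subunit, went the other way. It lies on chromosome 2, from 206114817 to 206159603 on the minus strand (ENSG00000023228, GRCh38, GENCODE 29), and its promoter printed above holds 1 ETS core. Its values were 10.73, 10.88, 10.88 and 11.02 in CTCF-A KO, with 11.18, 11.15, 11.15 and 11.18 in CTCF-B KO, and 11.36, 11.36, 11.41 and 11.42 in WT. The 3 groups did not overlap. NDUFS1 fell by 0.51 ± 0.05 in CTCF-A KO as well as by 0.23 ± 0.05 in CTCF-B KO (SE, n = 4, limma adjusted p = 3.66e-06 and 0.00357). In CTCF-A KO replicate 4 alone the difference was -0.37. With the GC and length trend removed it was -0.16 in CTCF-A KO and, with WT again as the baseline, -0.15 in CTCF-B KO, and both still passed.

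Some other subunits that bind the flavin or the iron-sulfur clusters fell in CTCF-B KO. NDUFV1, which binds NADH and the flavin, fell by 0.23 ± 0.06 and NDUFS8, a cluster subunit, by 0.27 ± 0.07 in CTCF-B KO (SE, n = 4, limma adjusted p = 0.0122 and 0.00834), while in CTCF-A KO they differed by -0.11 and 0.04 without passing. Without CTCF-A KO replicate 4 NDUFS8 was higher, at 0.12 (adjusted p = 0.0286), and NDUFV1 was at -0.04. In CTCF-A KO replicate 4 alone both were lower, at -0.33 and -0.20. Once the trend was removed both were lower in CTCF-A KO as a whole, at -0.31 and -0.18. NDUFS7, the cluster subunit next to the quinone, was at 0.19 ± 0.08 in CTCF-A KO (adjusted p = 0.0456); its call was lost in 10 of 12 fits that each left out 1 library, where its difference was 0.12 to 0.21, and it was 0.00 with the trend removed.

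NDUFA5, an accessory subunit of the matrix arm, was the gene of the complex whose difference between the knockouts ran most strongly the other way. It had values of 9.50, 9.89, 9.60 and 9.93 in CTCF-A KO, with 10.25, 10.27, 10.32 and 10.38 in CTCF-B KO, and 9.95, 9.92, 10.10 and 10.03 in WT. CTCF-A KO overlapped WT through replicate 4, and CTCF-B KO lay above both. The difference was -0.27 ± 0.09 for CTCF-A KO and 0.31 ± 0.09 for CTCF-B KO against WT, and -0.57 ± 0.09 between the knockouts (SE, n = 4, limma adjusted p = 0.0163, 0.0131 and 7.68e-05). The call in CTCF-A KO was lost without CTCF-A KO replicate 3 (-0.22) or WT replicate 3 (-0.24) and with the trend removed (-0.06).

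NDUFS6, a zinc-binding subunit of the matrix arm, had the largest difference in complex I in which CTCF-A KO was above CTCF-B KO. Its values were 12.03, 11.92, 11.95 and 11.59 in CTCF-A KO, with 11.21, 11.16, 11.18 and 11.13 in CTCF-B KO, and 11.45, 11.52, 11.48 and 11.52 in WT. No group overlapped another, and the difference between the knockouts was 0.70 ± 0.07 (SE, n = 4, limma adjusted p = 3.99e-06). Against WT it was 0.38 in CTCF-A KO, or 0.19 with the trend removed, and -0.32 in CTCF-B KO. NDUFA1, a membrane-arm subunit, showed 0.67 ± 0.09 between them, with 0.34 in CTCF-A KO, or 0.16 with the trend removed, and -0.33 in CTCF-B KO against WT. NDUFB3, also of that arm, fell by 0.28 ± 0.07 in CTCF-B KO and differed by 0.15 in CTCF-A KO (adjusted p = 0.00482 and 0.0741). NDUFB3 also passed in CTCF-A KO without replicate 4, at 0.22, and with the trend removed, at 0.14 (adjusted p = 0.000676 and 0.026). NDUFAB1, the mitochondrial acyl carrier protein, rose by 0.22 ± 0.07 in CTCF-A KO as well as by 0.30 ± 0.07 in CTCF-B KO (adjusted p = 0.0143 and 0.00339).

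**Figure D3:**
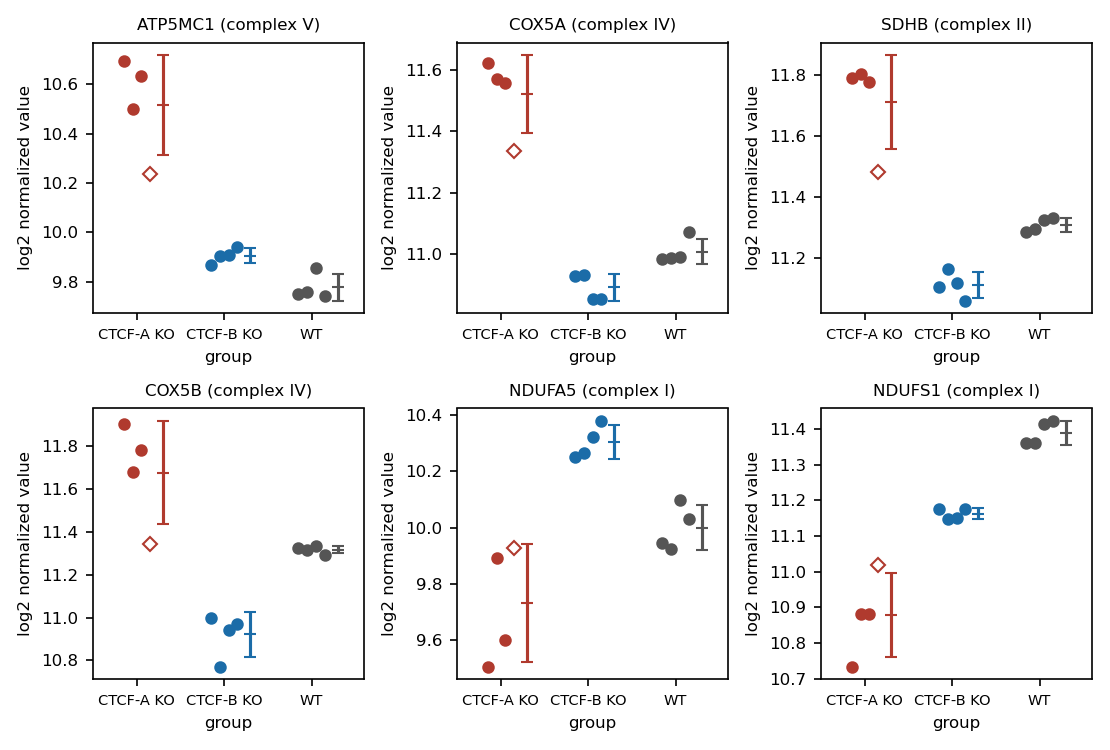
Log2 normalized values of 6 genes, 1 point per library, with CTCF-A KO replicate 4 as an open diamond and mean ± SD of the 4 libraries beside each group; the vertical axes do not start at 0. The 3 groups do not overlap for any gene shown but NDUFA5, where CTCF-A KO and WT overlap; COX5A, SDHB and COX5B are lowest in CTCF-B KO.

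Complex II, the succinate dehydrogenase, has 4 genes and split by gene. SDHB, the iron-sulfur subunit, lies on chromosome 1, from 17018722 to 17054170 on the minus strand (ENSG00000117118), with the promoter above. Its values were 11.79, 11.80, 11.77 and 11.48 in CTCF-A KO, with 11.11, 11.16, 11.12 and 11.06 in CTCF-B KO, and 11.29, 11.29, 11.32 and 11.33 in WT. The groups did not overlap: SDHB rose by 0.40 ± 0.06 in CTCF-A KO and fell by 0.20 ± 0.06 in CTCF-B KO (SE, n = 4, limma adjusted p = 0.000134 and 0.0238). The fall did not pass without CTCF-B KO replicate 1 (-0.19) or 4 (-0.18) or without WT replicate 3 (-0.19) or 4 (-0.19).

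SDHC, a membrane anchor that binds heme, had the same order, 0.31 ± 0.06 in CTCF-A KO but -0.33 ± 0.06 in CTCF-B KO against WT (SE, n = 4, limma adjusted p = 0.00134 and 0.00141), and its groups did not overlap either. After removal of the trend its difference was 0.76 in CTCF-A KO, against -0.20, which did not pass, in CTCF-B KO. The transcript lengths used for the 4 genes of complex II ran from 1153 to 13566 bases. The part of these lengths in the values with the trend removed was not tested. SDHD, the other anchor, was at -0.15 ± 0.05 in CTCF-A KO (adjusted p = 0.0249), a call lost without CTCF-A KO replicate 2 (-0.13) or WT replicate 2 (-0.14), 3 (-0.13) or 4 (-0.14), and at -0.03 with the trend removed. In CTCF-B KO SDHD was at -0.10 (adjusted p = 0.145), and at -0.14 with the trend removed (adjusted p = 0.0464). SDHA, the flavin subunit, differed by 0.09 and -0.19 in CTCF-A KO and CTCF-B KO against WT (adjusted p = 0.265 and 0.0542). Without CTCF-A KO replicate 4 both passed, at 0.16 and -0.19 (adjusted p = 0.0368 and 0.0152), and with the trend removed only the fall did, at -0.19 (adjusted p = 0.00515). SDHA shares sequence with pseudogenes, so its reads are uncertain.

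Complex III had 5 of 13 genes higher and none lower in CTCF-A KO by limma's adjusted p, with a median of 0.17, and 8 that did not pass. Over all genes 31.8% were called higher and 31.1% lower. At an unadjusted p under 0.05, 8 genes of the complex were higher and 1 lower. Removing the GC and length trend gave 5 higher and 1 lower (32.1% and 29.7% over all genes), with a median of 0.05. UQCRQ, a small subunit that binds the cytochrome b core, had 11.78, 11.71, 11.76 and 11.41 in CTCF-A KO, with 11.10, 10.88, 11.12 and 11.03 in CTCF-B KO, and 11.14, 11.08, 11.16 and 11.17 in WT. All CTCF-A KO libraries were above the others, by 0.53 ± 0.08 against WT (SE, n = 4, limma adjusted p = 8.69e-05). UQCR10, another small subunit, rose by 0.48 ± 0.09 (adjusted p = 0.000423). UQCC1, an assembly factor that stabilises newly made cytochrome b and no subunit of the finished complex, rose by 0.42 ± 0.06 in CTCF-A KO as well as by 0.19 ± 0.06 in CTCF-B KO (adjusted p = 4.49e-05 and 0.0169). This CTCF-B KO call was lost without CTCF-B KO replicate 1 (0.17).

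Most core proteins of complex III did not pass in CTCF-A KO over the 4 libraries. CYC1, or cytochrome c1, differed by 0.17 and 0.03 and UQCRFS1, the Rieske iron-sulfur protein, by -0.06 and 0.19 in CTCF-A KO and CTCF-B KO against WT. Of these 4 differences only that of UQCRFS1 in CTCF-B KO passed (SE 0.06, n = 4, limma adjusted p = 0.0253), and it was lost in 5 of 12 fits that each left out 1 library, at 0.18 to 0.19, and with the trend removed (0.19, adjusted p = 0.0716). Without CTCF-A KO replicate 4 CYC1 passed in CTCF-A KO, at 0.25 (adjusted p = 0.000123), and with the trend removed it was at -0.04. The direction of UQCRFS1 in CTCF-A KO depended on the setting. It was at -0.26 in replicate 4 alone, and at 0.21 with the trend removed and replicate 4 left out (limma adjusted p = 0.000951). Of the core proteins named UQCRC, UQCRC1 was at 0.25 ± 0.07 in CTCF-A KO (adjusted p = 0.0109), but 0.05 with the trend removed, and UQCRC2 at -0.07 (adjusted p = 0.138). In CTCF-B KO 4 genes of the complex were higher and none lower by limma's adjusted p, where 18.9% and 20.6% of all genes were. At an unadjusted p under 0.05 the counts were 4 and 1. With the trend removed 3 were higher and 2 lower (29.3% and 25.5% over all genes). Among the 4 called higher were UQCR11 (0.25 ± 0.08, limma adjusted p = 0.0213) and UQCRC2 (0.11 ± 0.04, adjusted p = 0.0376). The call of UQCR11 was lost in 4 of 12 such fits and that of UQCRC2 in 9. UQCRH was at 0.16 in CTCF-A KO but -0.17 in CTCF-B KO (adjusted p = 0.056 and 0.0717), with both passing once the trend was removed (0.10 and -0.15), and its reads may be shared with the intronless copy UQCRHL.

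Complex IV, cytochrome c oxidase, had the largest share of changed genes, 9 of 11 higher and 1 lower in CTCF-A KO, and the highest median, 0.34. Across all genes, 31.8% passed as higher and 31.1% as lower. After the trend was subtracted, 10 genes of complex IV rose and 1 fell, with a median of 0.26 (32.1% and 29.7% over all genes). Its median against the WT mean was 0.44 for the mean of CTCF-A KO replicates 1 to 3 but 0.04 in replicate 4. COX5A, a matrix-side subunit, lies on chromosome 15, from 74919791 to 74938168 on the minus strand (ENSG00000178741). Its values were 11.62, 11.57, 11.56 and 11.34 in CTCF-A KO, with 10.93, 10.93, 10.85 and 10.85 in CTCF-B KO, and 10.98, 10.99, 10.99 and 11.07 in WT. Replicate 4, the lowest of its group, was still 0.33 above the WT mean. COX5A rose by 0.51 ± 0.06 in CTCF-A KO (SE, n = 4, limma adjusted p = 8.24e-06) and differed by -0.12 in CTCF-B KO (adjusted p = 0.124), a difference that passed without CTCF-A KO replicate 4 and with the trend removed (-0.12 each).

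COX5B, the zinc-binding subunit on the same side, separated the knockouts more than any other of the 78 genes. It lies on chromosome 2, from 97646040 to 97648383 on the plus strand (ENSG00000135940), and its promoter holds 1 NRF1 and 2 ETS cores. Its values were 11.90, 11.68, 11.78 and 11.34 in CTCF-A KO, with 11.00, 10.77, 10.94 and 10.97 in CTCF-B KO, and 11.32, 11.32, 11.33 and 11.29 in WT. CTCF-A KO replicate 4 sat just above the highest WT library, and all CTCF-B KO libraries sat below the lowest. COX5B rose by 0.36 ± 0.09 in CTCF-A KO and fell by 0.40 ± 0.09 in CTCF-B KO (SE, n = 4, limma adjusted p = 0.00547 and 0.00497), and the knockouts differed by 0.75 ± 0.09 (adjusted p = 1.6e-05). In replicate 4 alone COX5B was 0.02 above the WT mean, and with the trend removed CTCF-A KO was 0.21 above WT.

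COX6B1, which faces the cytochrome c side, had the same order, with 0.34 ± 0.09 in CTCF-A KO but -0.31 ± 0.09 in CTCF-B KO against WT (SE, n = 4, limma adjusted p = 0.00424 and 0.0117), and 0.14 in CTCF-A KO with the trend removed. COX7B was at 0.15 ± 0.07 and -0.35 ± 0.07 (adjusted p = 0.0714 and 0.0014), so only its fall passed; without replicate 4 its difference in CTCF-A KO was 0.23 and with the trend removed 0.26, and both passed. NDUFA4, COX7A2 and COX6A1 rose by 0.37 ± 0.07, 0.36 ± 0.09 and 0.36 ± 0.08 in CTCF-A KO and differed by 0.00, -0.01 and 0.02 in CTCF-B KO. COX7A2L, which joins complexes III and IV into supercomplexes, rose by 0.27 ± 0.08 in CTCF-A KO (adjusted p = 0.0133), with replicate 4 at -0.06.

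COX8A, a small membrane subunit, was the 1 gene of complex IV lower in both knockouts. Its values were 11.09, 10.88, 11.00 and 10.67 in CTCF-A KO, with 10.81, 10.72, 10.77 and 10.80 in CTCF-B KO, and 11.10, 11.02, 11.15 and 11.10 in WT. CTCF-B KO lay below WT in every library, by 0.32 ± 0.07, while CTCF-A KO overlapped WT, at -0.18 ± 0.07 (SE, n = 4, limma adjusted p = 0.00374 and 0.0429). The CTCF-A KO call was lost in 9 of 12 fits that each left out 1 library, at -0.10 without CTCF-A KO replicate 4. In that replicate alone the difference was -0.42, and with the trend removed it was -0.39 over the 4 libraries.

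Complex V, the ATP synthase, had 9 of 17 genes above WT and 2 below it in CTCF-A KO, with a median of 0.20. Over all genes 31.8% were called higher and 31.1% lower. Removing the GC and length trend left 6 higher and 1 lower (32.1% and 29.7% over all genes), with a median of 0.09. ATP5MC1, 1 of 3 genes that encode the same mature c subunit of the membrane ring, had the largest rise of all 78. It lies on chromosome 17, from 48892765 to 48895871 on the plus strand (ENSG00000159199). Its values were 10.69, 10.50, 10.64 and 10.24 in CTCF-A KO, with 9.87, 9.90, 9.91 and 9.94 in CTCF-B KO, and 9.75, 9.76, 9.86 and 9.74 in WT. CTCF-A KO was above the others in every library, replicate 4 included. The rise was 0.74 ± 0.08, or 1.67-fold, in CTCF-A KO, against 0.13 ± 0.08 in CTCF-B KO (SE, n = 4, limma adjusted p = 6.49e-06 and 0.222). The difference in CTCF-B KO passed without CTCF-A KO replicate 4 (0.13) and with the trend removed (0.14).

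Its sister genes changed less. ATP5MC2 was at 0.24 ± 0.07 and ATP5MC3 at 0.15 ± 0.07 in CTCF-A KO (SE, n = 4, limma adjusted p = 0.0122 and 0.0884), and ATP5MC2 at 0.04 with the trend removed. Without replicate 4 ATP5MC3 passed as well, at 0.23 (adjusted p = 0.000103). Within a library, ATP5MC1 relative to the mean of ATP5MC2 and ATP5MC3 on the log2 scale shows how far the mix of the 3 genes moved. Set to 0 at the WT mean, it was 0.57, 0.50, 0.58 and 0.52 in CTCF-A KO replicates 1 to 4, 0.10, 0.23, 0.14 and 0.29 in CTCF-B KO, and -0.06, 0.03, 0.07 and -0.04 in WT. On this measure replicate 4 lay inside the range of replicates 1 to 3, and no group overlapped another. The means were 0.55 ± 0.04, 0.19 ± 0.09 and 0.00 ± 0.06 (SD, n = 4), and each of the 3 pairs gave p = 0.0286 in a two-sided exact permutation test, the smallest that 4 against 4 libraries can give, and the same when adjusted over the 3. The ratio was chosen after its values were seen.

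Of the catalytic head, ATP5F1A, the alpha subunit, fell by 0.19 ± 0.05 in CTCF-A KO (SE, n = 4, limma adjusted p = 0.0045). Its values were 11.77, 11.79, 11.79 and 11.57 in CTCF-A KO, with 11.99, 11.98, 11.99 and 11.94 in CTCF-B KO, and 11.93, 11.89, 11.92 and 11.94 in WT. Replicate 4 was the lowest library. Without the trend the difference was -0.07 and did not pass. ATP5F1B, the beta subunit that makes ATP, differed from WT by 0.02 and 0.01 in the CTCF-A and CTCF-B knockouts (adjusted p = 0.771 and 0.93). Its direction in CTCF-A KO depended on the setting: 0.09 without replicate 4 and -0.11 with the trend removed (limma adjusted p = 0.02 and 0.00757), and -0.19 in replicate 4 alone. ATP5F1E, the epsilon subunit of the central stalk, rose by 0.30 ± 0.07 in CTCF-A KO and fell by 0.34 ± 0.07 in CTCF-B KO (adjusted p = 0.00224 and 0.00138). ATP5F1D, the delta subunit beside it, was at 0.21 and -0.21 (adjusted p = 0.026 and 0.039); these calls were lost in 4 and 9 of 12 fits that each left out 1 library, and the rise was 0.00 with the trend removed.

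The outer stalk of the synthase was split. ATP5PD, the d subunit, had 11.47, 11.41, 11.31 and 11.12 in CTCF-A KO, with 10.80, 10.76, 10.86 and 10.77 in CTCF-B KO, and 10.89, 10.87, 10.88 and 10.69 in WT, a rise of 0.49 ± 0.07 in CTCF-A KO (SE, n = 4, limma adjusted p = 7.09e-05) with -0.04 in CTCF-B KO. ATP5PO, the subunit that ties the stalk to the head, was at 0.20 ± 0.06 in CTCF-A KO but -0.32 ± 0.06 in CTCF-B KO (adjusted p = 0.011 and 0.0011); its rise was 0.10 and did not pass with the trend removed. ATP5PF, or F6, was at 0.26 ± 0.07 and -0.19 ± 0.07 (adjusted p = 0.00687 and 0.0428), the fall being lost in 7 of 12 fits that each left out 1 library. ATP5PB, the b subunit, was lower in both, at -0.10 ± 0.03 and -0.12 ± 0.03 (adjusted p = 0.0224 and 0.012), the call in CTCF-A KO being lost without WT replicate 3 or 4 (-0.09 each). Removing the trend turned it to 0.13 in CTCF-A KO and left -0.12 in CTCF-B KO (adjusted p = 0.0462 and 0.0549). Of the membrane subunits outside the c ring, ATP5MF was at 0.24 ± 0.09 in CTCF-A KO (adjusted p = 0.0356), a call lost in 7 of 12 such fits and with the trend removed (0.10).

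**Figure D4:**
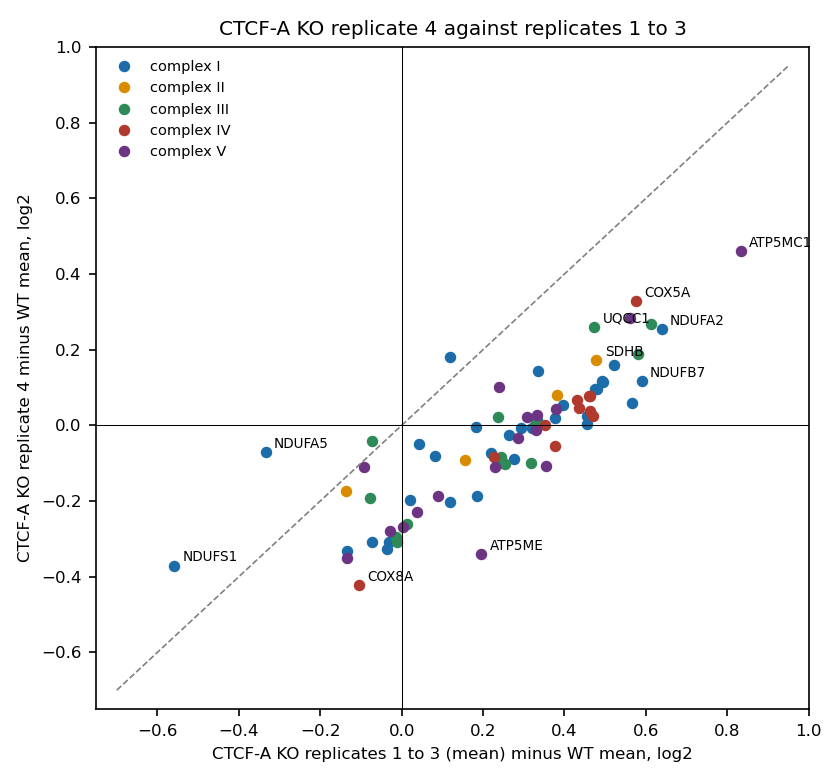
Each point is 1 of the 78 genes; the horizontal axis is the mean of CTCF-A KO replicates 1 to 3 and the vertical axis replicate 4, both as the log2 difference from the WT mean, and the dashed line marks equal values. Nearly all points lie below the line, and ATP5MC1 and COX5A are the highest on the vertical axis, at 0.46 and 0.33.

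In CTCF-A KO replicate 4 alone 8 of the 78 genes were called higher and 15 lower, where 20.2% and 21.6% of all genes were. The 8 higher ones were ATP5MC1 (0.46), COX5A (0.33), ATP5PD (0.28), UQCRQ (0.27), UQCC1 (0.26), NDUFA2 (0.25), SDHB (0.17) and NDUFS5 (0.12). Among the 15 called lower the largest differences were those of COX8A (-0.42), NDUFS1 (-0.37), ATP5F1A (-0.35) and NDUFV1 (-0.33). The largest gaps between replicate 4 and the mean of replicates 1 to 3 were those of ATP5ME (-0.54), NDUFA3 (-0.51), NDUFB7 (-0.47), ATP5MF (-0.46) and NDUFA1 (-0.45).

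**Figure D5:**
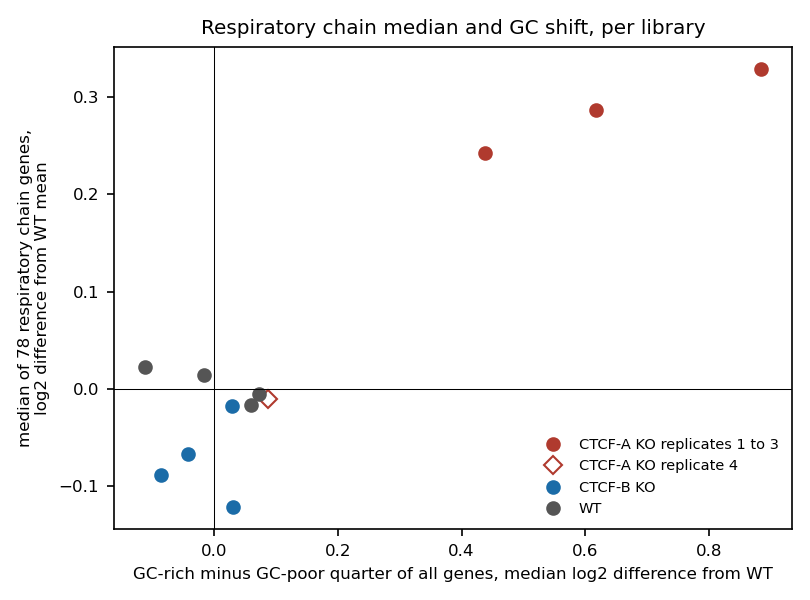
Each point is 1 library; the horizontal axis is how far the 25% of all genes richest in GC lie above the 25% poorest in it (log2 difference from WT), and the vertical axis is the median of the 78 respiratory chain genes. The 3 CTCF-A KO libraries with a GC difference of 0.438 or more have medians of 0.242 to 0.329, and replicate 4, at 0.087, has -0.010.

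Most of these genes have short transcripts, although lengths ran from 305 to 13566 bases. Their median length was 977 bases, against 2780 over all genes tested, and their median GC content 48.5%, against 49.5%. Across the 78, the gap between CTCF-A KO replicate 4 and replicates 1 to 3 had a Spearman correlation of 0.49 with transcript length and -0.36 with GC content, so that the shorter and more GC-rich genes lay further below in replicate 4. For the difference between the whole CTCF-A KO group and WT the values were -0.30 and 0.21, and for CTCF-B KO 0.10 and -0.09. Genes are not independent replicates, and all points of one correlation share the same libraries, so these are descriptions. When the trend was removed in each library, the median of the 78 was 0.157 to 0.214 in CTCF-A KO replicates 1 to 3 and -0.001 in replicate 4. Of the 43 genes higher in CTCF-A KO, 35 were also called higher then, and of the 6 lower ones 2 were called lower.

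Lists of genes that assemble or surround the chain are to be read against the shares of all genes that passed. These were 31.8% higher and 31.1% lower in CTCF-A KO and 18.9% and 20.6% in CTCF-B KO. For these lists and their genes, here and in the next paragraphs, no values with the GC and length trend removed are given. The part of that shift in them was not tested. Of 17 assembly factors of complex I, 5 were higher and 3 lower (median 0.07), with NDUFAF2 at 0.36 ± 0.08 and NDUFAF7 at -0.25 ± 0.05 (SE, n = 4, limma adjusted p under 0.05 for these and the genes named as higher or lower in the next sentences). Of 10 factors for complexes II, III and V, 1 was higher and 3 lower (median 0.00), with SDHAF3, which helps build the iron-sulfur subunit of complex II, at -0.37 ± 0.06. Of 22 factors for complex IV, 7 were higher and 7 lower (median 0.12). COX14, TACO1 and COA3 rose by 0.50, 0.48 and 0.48, while CMC2 and COX18 were at -0.55 and -0.50. LRPPRC, which stabilises mitochondrial mRNAs, was at -0.65 ± 0.18, with -0.88 in replicates 1 to 3 and 0.03 in replicate 4. In CTCF-B KO the counts were 3 higher and 3 lower for complex I factors, 2 and 1 for those of complexes II, III and V, and 5 and 3 for complex IV factors.

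CYCS, or cytochrome c, which carries electrons between complexes III and IV, differed between the knockouts in the same direction as NDUFA5. It fell by 0.39 ± 0.05 in CTCF-A KO, replicate 4 included at -0.42, and rose by 0.29 ± 0.05 in CTCF-B KO (SE, n = 4, limma adjusted p under 0.05 for both). ATP5IF1, the inhibitor of the synthase, rose by 0.27 ± 0.07 in CTCF-A KO, with replicate 4 at -0.01.

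Of the 11 regulators of respiratory genes analysed, 1 rose and 6 fell in CTCF-A KO (median -0.14), where 31.8% and 31.1% of all genes did, and in CTCF-B KO 1 rose and none fell by limma's adjusted p (1 at an unadjusted p under 0.05; median -0.03). TFAM, which packs and transcribes mitochondrial DNA, fell by 0.70 ± 0.12 in CTCF-A KO, with replicate 4 at -0.37. GABPA and GABPB2, the DNA-binding and a partner subunit of GABP, fell by 0.59 ± 0.20 and 0.44 ± 0.07. GABPA was at -0.80 in replicates 1 to 3 and 0.04 in replicate 4. POLRMT, the mitochondrial RNA polymerase, rose by 0.32 ± 0.06 in CTCF-A KO as well as by 0.22 ± 0.06 in CTCF-B KO. NRF1 itself differed by -0.05 and 0.05 (adjusted p = 0.508 and 0.61).

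Of 13 citric acid cycle genes, 3 were higher and 5 lower in CTCF-A KO (median 0.06), and 1 was higher and 2 lower in CTCF-B KO. DLD and SUCLA2 fell by 0.46 ± 0.12 and 0.44 ± 0.13 in CTCF-A KO, with replicate 4 at -0.06 and -0.03. Of 8 genes of the MICOS complex and cristae, 3 were higher and 3 lower in CTCF-A KO. CHCHD6 rose by 0.50 ± 0.08, and OPA1, the fusion GTPase, was at -0.76 ± 0.24, with -1.04 in replicates 1 to 3 and 0.08 in replicate 4.

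Mitochondrial ribosomal proteins, which make the subunits encoded in mitochondrial DNA, had 34 of 77 higher and 6 lower in CTCF-A KO (median 0.12), where 31.8% and 31.1% of all genes passed. The 77 were matched by symbol and include the antisense RNA MRPL20-AS1, which did not pass against WT in either knockout. In CTCF-B KO 19 were higher and 9 lower (median 0.04), against 18.9% and 20.6% of all genes; the difference from the respiratory chain was not tested. MRPS11 rose the most of these in CTCF-A KO, by 0.83 ± 0.08, with replicate 4 at 0.54, and MRPL19 fell by 0.46 ± 0.07. In replicate 4 the median of the 77 genes was -0.03, against 0.18 for the mean of replicates 1 to 3.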

How the data were processed

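The deposited table gives 1 row per gene and 1 column for each of the 12 libraries. Per the submitters' processing notes, reads were trimmed with Trimmomatic 0.33, counted with featureCounts and analysed with DESeq2 on GRCh38.p7; the aligner, annotation, strand setting and gene filter are not given in the sources used here. The deposited values are log2 values already, as their range of 1.34 to 17.97 shows, so they were used without a pseudocount, although the plan had allowed for linear values. The transformation behind them is unknown, and depth is too, so no counting interval is given. Without strand, reads of overlapping genes may be mixed.

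Genes at 10 or more on the linear scale in at least 4 libraries were kept (11128 of 11178). All 12 libraries entered a model with a mean per group, fitted by limma 3.58.1 under R 4.3.3 (trended variance, two-sided, Benjamini-Hochberg at 0.05), after a check on simulated data. For the GC and length alternative, natural splines (5 and 4 degrees of freedom and their product) on transcript GC content and log2 length from GENCODE 29 were fitted to each library's difference from the WT mean and subtracted; 11096 genes had both. Combining it with the replicate 4 settings was added after seeing the data. Same-numbered replicates did not deviate together throughout (correlations -0.32 to 0.43), so the numbers were not taken to pair samples. Genes with values were named by rule: per complex the largest called changes, isoform pairs, catalytic subunits, and the largest gaps of replicate 4 and between knockouts, plus up to 3 per direction of each pathway list. The members and lists were chosen with earlier results of these data known. NDUFA7 and NDUFV2 are not analysed here. Results of some single genes are not reported here.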

Additional observations from a re-analysis of the deposited data

Results flagged for a closer look

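In 12 of 162 groups of 4 libraries (each named gene, and the medians over the 78 genes and over each complex, in each group), 1 library lay far from the other 3, where chance gives about 1 in 20. Of these, 4 were CTCF-A KO replicate 4, always the lowest of its group. There ATP5F1A had a log2 value of 11.57 (11.77 to 11.79 in the other CTCF-A KO libraries), ATP5PF 10.08 (10.35 to 10.41), COX6A1 9.64 (10.02 to 10.09) and SDHB 11.48 (11.77 to 11.80). In CTCF-A KO replicate 1, UQCRC2 was at 10.61 (10.69 to 10.70). In CTCF-B KO replicate 2, COX7A2 was at 11.05 (11.26 to 11.29). Among the WT libraries, replicate 2 had CYC1 at 10.86 (10.94 to 10.95). Replicate 3 had ATP5MC1 at 9.86 (9.74 to 9.76), COX7A2 at 11.30 (11.20 to 11.21) and NDUFA4 at 12.19 (12.12 to 12.13). Replicate 4 had ATP5PD at 10.69 (10.87 to 10.89) and COX5A at 11.07 (10.98 to 10.99). For ATP5PD and COX5A this WT library is part of the reference for the rise in CTCF-A KO, and all CTCF-A KO libraries were still above it.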

How the results depend on the processing

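The direction of the CTCF-A KO result held in each fit that left out 1 library and under quantile normalization, median centring, a pseudocount of 16, the filters and the variance settings, but not in replicate 4 alone. Leave-one-out counts against WT were 42 to 61 for CTCF-A KO (38 to 56 higher, 2 to 7 lower) and 18 to 43 for CTCF-B KO (3 to 10 higher, 14 to 33 lower; the highest without CTCF-A KO replicate 4). Between the knockouts they were 49 to 64 (43 to 58 higher, 5 to 8 lower). For CTCF-A KO against WT the leave-one-out medians were 0.16 to 0.29 over all 78 genes and 0.15 to 0.28, 0.15 to 0.27, 0.12 to 0.24, 0.28 to 0.44 and 0.14 to 0.24 for complexes I to V. For CTCF-B KO against WT the leave-one-out medians were -0.10 to -0.08 over all 78 genes and -0.09 to -0.07, -0.21 to -0.18, 0.01 to 0.05, -0.12 to -0.09 and -0.11 to -0.08 for complexes I to V. For CTCF-A KO against CTCF-B KO the leave-one-out medians were 0.23 to 0.35 over all 78 genes and 0.19 to 0.33, 0.40 to 0.51, 0.05 to 0.19, 0.32 to 0.47 and 0.25 to 0.42 for complexes I to V. Median centring left 2 genes lower in CTCF-A KO. With CTCF-A KO replicate 4 as its only library, 23 genes passed against WT, 8 higher and 15 lower, with medians of -0.010 overall and -0.0058, -0.0052, -0.083, 0.038 and -0.11 for complexes I to V. Against CTCF-B KO, 26 were then higher and 15 lower, with medians of 0.017 overall and 0.018, 0.23, -0.14, 0.090 and -0.034. With the GC and length trend removed as well, 28 passed against WT, 14 higher and 14 lower, with medians of -0.0013 overall and 0.023, -0.0095, -0.036, 0.052 and -0.060. Against CTCF-B KO 17 were then lower, with medians of 0.044 overall and -0.0096, 0.17, -0.099 and -0.0017 for complexes I, II, III and V. For CTCF-B KO against WT, 46 genes passed (12 higher, 34 lower) when only these 2 groups were fitted, 35 (27 lower) with the trend removed, and 39 (30 lower) with the trend removed and the replicate block. The block alone gave 50, 24 and 54 passing genes in CTCF-A KO against WT, CTCF-B KO against WT and CTCF-A KO against CTCF-B KO; the numbers are not known to pair the libraries (correlations of -0.32 to 0.43). After quantile normalization, in CTCF-A KO against CTCF-B KO, the sign turned for ATP5F1B (-0.19). With CTCF-A KO replicate 4 as its only library, in CTCF-A KO against WT, the sign turned for ATP5F1B (-0.19), ATP5F1D (-0.034), ATP5MC2 (-0.013), ATP5MF (-0.11), COX7A2L (-0.055), NDUFAB1 (-0.0079), NDUFS7 (-0.024) and NDUFS8 (-0.20) and, in CTCF-A KO against CTCF-B KO, the sign turned for ATP5F1B (-0.19), ATP5MC2 (-0.072), ATP5ME (-0.034), ATP5MF (-0.038), COX7A2L (-0.019) and CYC1 (-0.14). With the GC and length trend removed, in CTCF-A KO against WT, the sign turned for ATP5F1B (-0.11), ATP5F1D (-0.0039), ATP5PB (0.13), NDUFS7 (-0.0038) and NDUFS8 (-0.18) and, in CTCF-A KO against CTCF-B KO, the sign turned for ATP5F1B (-0.10) and ATP5MC2 (-0.012); the replicate block on top gave the same values. With the trend removed and CTCF-A KO replicate 4 left out, in CTCF-A KO against WT, the sign turned for ATP5F1A (0.0072), ATP5F1B (-0.076), ATP5PB (0.19), NDUFS8 (-0.16) and UQCRFS1 (0.21) and, in CTCF-A KO against CTCF-B KO, the sign turned for ATP5F1B (-0.074), NDUFS1 (0.054), SDHD (0.13) and UQCRFS1 (0.019). With the trend removed and replicate 4 alone for CTCF-A KO, in CTCF-A KO against WT, the sign turned for ATP5F1B (-0.20), ATP5F1D (-0.093), ATP5MC2 (-0.036), ATP5MF (-0.06), CYC1 (-0.13), NDUFS7 (-0.046), NDUFS8 (-0.24) and UQCRC1 (-0.036) and, in CTCF-A KO against CTCF-B KO, the sign turned for ATP5F1B (-0.20), ATP5MC2 (-0.084), ATP5ME (-0.039), ATP5MF (-0.061), COX8A (-0.11), CYC1 (-0.15), NDUFS7 (-0.0018) and NDUFV1 (-0.13). The cause was not tested in any of these. Depth is unknown, so no counting limit can be given.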
